A study of Homo sapiens with 6 samples.

Results

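Aminoacyl-tRNA synthetases, enzymes of amino acid and one-carbon metabolism, and genes of the integrated stress response were followed in A375 cells given the RAF inhibitor vemurafenib. The set was chosen by gene symbol: 41 genes, whose probes were found through the platform's annotation. Of these, 40 had a probe and 39 were measured, out of 11220 genes tested on the arrays. CARS1 (cysteinyl-tRNA synthetase) was not analysed here, and CHAC1, a glutathione-degrading enzyme, had a probe that was not above background on any array. The 39 measured genes comprised 18 for tRNA charging and export, 10 for the stress response, and 11 for amino acid and one-carbon enzymes. A375 is an established human melanoma line, grown here with the solvent DMSO (3 samples) or with 3 µM vemurafenib (3 samples), in both cases for 24 h. The labels give no other treatment or genotype, and within either group 1 sample has no number and the others are 1 and 2. Nothing says that they were separate cultures, so the p-values rest on a spread that may be only technical.

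A synthetase joins 1 kind of amino acid to its tRNA, except EPRS1, which serves glutamate and proline. Exportin-t (XPOT) carries tRNAs out of the nucleus. When amino acids run short or unfolded protein accumulates, kinases phosphorylate the initiation factor eIF2, general translation falls, and the transcription factor ATF4 is translated instead. ATF4, paired with a C/EBP protein such as CEBPG or CEBPB, binds amino acid response elements in the genes of many synthetases, of asparagine synthetase (ASNS) and of serine and one-carbon enzymes. The same program feeds back through TRIB3, a pseudokinase that binds ATF4, and through PPP1R15A (GADD34), which directs a phosphatase to eIF2. ATF4 itself is controlled largely in translation, which messenger RNA levels do not show.

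The promoter sequences show which genes of the set carry the letters that ATF4 and C/EBP proteins recognise. In windows from 250 bases before to 50 bases after each annotated start (RefSeq, GRCh38.p14), the core TGATGNAA was searched on both strands. Windows were found for 33 of the 41 genes, 50 windows in all, since some genes have several starts. The core lay in a window of 11 of these 33 genes (33.3%), against 1217 of 27305 genes (4.46%) in the whole promoter table. Many genes of the set are known ATF4 targets, so this share describes the choice of genes as well. The stretches are printed on the gene's strand with the core or its reverse complement in capitals.

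AARS1: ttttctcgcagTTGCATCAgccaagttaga
CARS1: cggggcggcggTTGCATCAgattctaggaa
GARS1: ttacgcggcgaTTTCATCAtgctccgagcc
IARS1: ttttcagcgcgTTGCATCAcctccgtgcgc
MARS1: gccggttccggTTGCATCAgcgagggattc
NARS1: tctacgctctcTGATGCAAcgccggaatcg
TARS1: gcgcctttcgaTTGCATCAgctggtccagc
CEBPG: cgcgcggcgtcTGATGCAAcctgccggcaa
CHAC1: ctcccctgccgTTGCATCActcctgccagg
ASNS: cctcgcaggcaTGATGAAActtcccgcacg
MTHFD1L: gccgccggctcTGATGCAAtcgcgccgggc

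The stretches lie at AARS1 chr16:70289675-70289704 (-), CARS1 chr11:3057407-3057436 (-), GARS1 chr7:30594834-30594863 (+), IARS1 chr9:92293692-92293721 (-), MARS1 chr12:57488053-57488082 (+), NARS1 chr18:57621804-57621833 (-), TARS1 chr5:33440956-33440985 (+), CEBPG chr19:33374060-33374089 (+), CHAC1 chr15:40953251-40953280 (+), ASNS chr7:97872458-97872487 (-), MTHFD1L chr6:150866346-150866375 (+). Of the genes named in them, 1 passed the test described below, CEBPG, which was lower with the drug. ASNS, whose promoter element is the textbook amino acid response element, did not pass. The whole windows of both are shown with the core in capitals, CEBPG at chr19:33373863-33374162 (+) and ASNS at chr7:97872359-97872658 (-).

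CEBPG: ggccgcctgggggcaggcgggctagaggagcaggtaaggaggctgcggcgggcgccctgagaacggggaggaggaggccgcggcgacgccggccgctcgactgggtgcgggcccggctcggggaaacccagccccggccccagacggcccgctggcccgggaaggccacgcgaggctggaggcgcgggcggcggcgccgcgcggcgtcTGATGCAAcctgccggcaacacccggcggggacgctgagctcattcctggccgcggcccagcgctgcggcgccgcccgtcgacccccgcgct
ASNS: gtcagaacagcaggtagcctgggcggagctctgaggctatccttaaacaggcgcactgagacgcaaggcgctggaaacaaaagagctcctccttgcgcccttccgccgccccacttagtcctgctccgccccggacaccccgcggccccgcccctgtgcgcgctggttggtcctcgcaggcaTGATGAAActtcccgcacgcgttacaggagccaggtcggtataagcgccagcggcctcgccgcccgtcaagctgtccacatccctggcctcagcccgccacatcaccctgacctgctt

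The core began at position -42 from this annotated start in CEBPG and at -68 in ASNS. The E-box CACGTG, the core site of MYC and related factors, was found for 5 of the 33 genes (15.2%), IARS1, ATF4, MTHFD1, MTHFD1L and ALDH18A1, against 8.77% of all genes in the table. The ER stress element, CCAAT and CCACG with 9 bases between them, was found in 0 of the 50 windows and in 27 of 35116 windows overall (0.0769%). No motif overlapped another in these windows. A match describes letters and not binding, and the absence of one says only that the letters are not in the window.

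As a check of the labels, DUSP6, a phosphatase and known target of the ERK pathway that the drug inhibits, was 8.91-fold lower and MYC 6.47-fold lower (limma adjusted p = 0.00134 and 0.00129). Between 18370 and 18628 probes were above background on the DMSO arrays and between 18666 and 20044 on the vemurafenib arrays. With 6 arrays the precision of each value is limited. The samples numbered 2 stood apart in both groups, differing from the others of their group by a root mean square of 0.54 to 0.56 (log2) against 0.30 and 0.32 between the unnumbered and 1 samples. Of the melanocyte markers, SOX10, MITF, PAX3, EDNRB and S100A1 were detected on all 6 arrays, PMEL and MLANA on 2 and 1, and TYR, TYRP1 and S100B on none. MITF was higher with vemurafenib (log2 change 0.75, limma adjusted p = 0.0334). SOX10, PAX3, EDNRB and S100A1 did not pass (0.39, -0.18, -0.17 and 0.26). The markers PTPRC and CD3E of leukocytes, CDH5, KDR and TEK of endothelium, and KRT5 and KRT1 of keratinocytes were detected on none, while KRT10 was detected on 6 arrays, LYZ on 5, CD14 and KRT14 on 4, VWF on 2 and PECAM1 on 1. The mean log2 intensity of the keratinocyte list spanned 5.67 to 6.04 with DMSO and 5.85 to 6.48 with vemurafenib, that of the leukocyte list 4.73 to 4.88 and 4.44 to 4.84, and that of the endothelial list 4.31 to 4.47 and 4.42 to 4.56. Among 5 fibroblast markers DCN, detected on 3 arrays, had a log2 change of 1.00 (limma adjusted p = 0.0230). Its DMSO mean of 4.44 lay near the lowest detected signal of the DMSO arrays (4.40 to 4.43), so this change is approximate. LUM on 6 arrays (1.16, 0.0693) and COL6A3 on 4 (-1.01, 0.0930) did not pass, and PDGFRA and FAP were detected on 2 and 1. The mean of that list spanned 4.68 to 5.18 with DMSO and 4.94 to 5.42 with vemurafenib. The part of these markers in the results was not tested.

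After 24 h of vemurafenib, 2 of the 39 genes were higher, NUPR1 and WARS1, and 6 were lower, STC2, MTHFD2, CEBPG, TRIB3, XPOT and PPP1R15A. The test was limma's moderated comparison of log2 intensities with Benjamini-Hochberg adjustment over all 18747 probes above background, at a threshold of 0.05. Of all genes tested, 16% passed (8.07% higher and 7.93% lower), so the 8 of 39 (20.5%) in this set lay near that background. The passing genes were unevenly spread over the roles, with 5 of 10 stress-response genes, 2 of 18 genes of tRNA charging and export, and 1 of 11 metabolic enzymes. The median log2 change over the 39 genes was -0.27, against 0.05 over all genes, with 27 changes negative and 12 positive. The labels do not state that same-numbered samples were paired. With the replicate number as a block, 2 were higher and 9 lower, the additions being AARS2, MTHFD1 and MTHFD1L. These 11 of 39 (28.2%) lay near the 29.8% of all genes that passed in the blocked fit. When the unnumbered and 1 samples of each group, which lay closest together, were averaged to give 2 against 2, 0 of the 39 passed. In that fit only 0.232% of all genes passed.

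**Figure D1:**
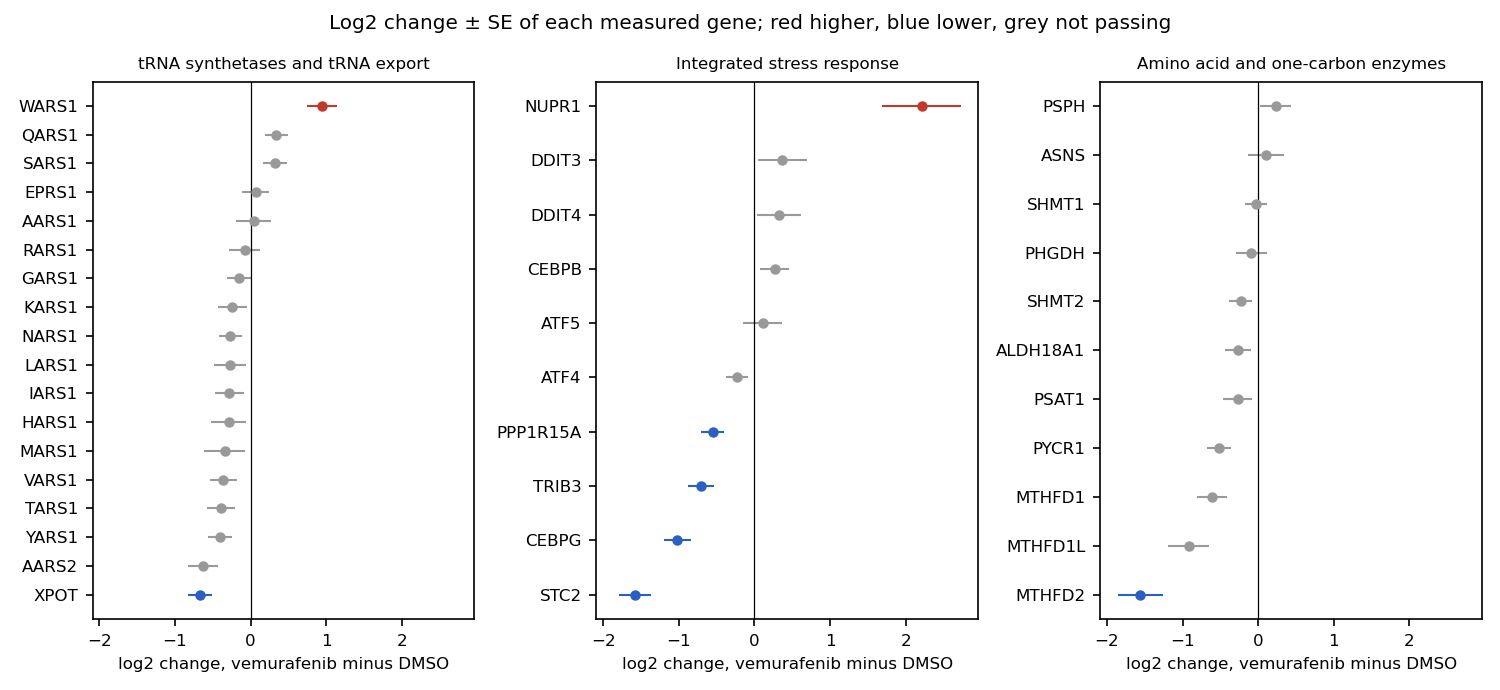
Log2 change (vemurafenib minus DMSO) with its standard error for each of the 39 measured genes, in 3 panels by role; red genes were higher and blue genes lower at an adjusted p under 0.05, and grey genes did not pass. NUPR1 (2.21) lies at the top, STC2 (-1.58) and MTHFD2 (-1.56) at the bottom, and most synthetases lie between -0.40 and 0.34.

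Of the synthetases, which charge tRNAs, 1 of 17 measured passed. WARS1, the tryptophanyl-tRNA synthetase, which is also known as an interferon-induced gene, had normalised log2 intensities of 9.37, 9.66 and 9.58 in the unnumbered, 1 and 2 DMSO samples and 10.83, 10.23 and 10.38 with vemurafenib. All 3 treated samples lay above all 3 controls, and the unnumbered treated sample was highest. The rise was 1.92-fold, a log2 change of 0.94 ± 0.20 (SE, limma adjusted p = 0.0244), from 9.54 ± 0.15 to 10.48 ± 0.31 (SD, n = 3 per group). A second WARS1 probe rose by 0.93 ± 0.23 (limma adjusted p = 0.0387), with values of 8.23 to 8.46 in controls and 8.83 to 9.69 in treated samples. The WARS1 call was lost without the unnumbered or the 1 sample of either group (adjusted p up to 0.0868). Neither WARS1 promoter window held the amino acid core.

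The other 16 synthetases did not pass. QARS1 (glutaminyl) and SARS1 (seryl) were the next in order, with log2 changes of 0.34 ± 0.15 and 0.32 ± 0.16 (SE), and their treated samples also lay above all controls. QARS1 had log2 intensities of 11.88, 11.76 and 11.67 with DMSO and 12.16, 12.09 and 12.09 with vemurafenib (limma adjusted p = 0.163). SARS1 went from 9.39, 9.28 and 9.04 to 9.67, 9.48 and 9.51 (limma adjusted p = 0.232). At the other end of the order were AARS2 and YARS1. AARS2, the mitochondrial alanyl-tRNA synthetase, had 7.49, 7.58 and 7.76 with DMSO and 6.69, 6.92 and 7.33 with vemurafenib, groups that did not overlap. Its log2 change was -0.63 ± 0.20 (SE, limma adjusted p = 0.0762, and 0.0259 with the replicate block). YARS1 (tyrosyl) had 11.15, 10.98 and 11.01 against 10.54, 10.55 and 10.84, a log2 change of -0.40 ± 0.16 (limma adjusted p = 0.132). Its control samples lay above all treated samples.

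The remaining 12 cytosolic synthetases did not pass either. VARS1 (valyl) had a log2 change of -0.36 and NARS1 (asparaginyl) of -0.27, and in both all controls lay above all treated samples (adjusted p = 0.205 and 0.249). TARS1 (threonyl) with -0.39, MARS1 (methionyl) with -0.34, HARS1 (histidyl) with -0.29, IARS1 (isoleucyl) with -0.28, LARS1 (leucyl) with -0.27 and KARS1 (lysyl) with -0.24 had overlapping groups (adjusted p from 0.204 to 0.444). GARS1 (glycyl), RARS1 (arginyl), EPRS1 (glutamyl and prolyl) and AARS1 (alanyl) had log2 changes of -0.15, -0.08, 0.07 and 0.04. For AARS1 the 95% interval of the change ran from -0.49 to 0.56. In AARS1 and EPRS1 the DMSO 2 sample was the lowest of the 6, at 11.38 against 12.14 and 12.03 in the other AARS1 controls and 10.69 against 11.19 and 11.02 in the EPRS1 controls. A second VARS1 probe, with means of 4.86 and 4.65, did not pass (-0.21), and a second IARS1 probe was not above background.

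XPOT, the tRNA exporter, fell. Its log2 intensity was 6.92, 6.93 and 6.78 with DMSO and 6.21, 6.33 and 6.07 with vemurafenib, with no overlap and little spread within either group. The fall was 1.59-fold, a log2 change of -0.67 ± 0.16 (SE, limma adjusted p = 0.0297), and with no background correction it was -0.38, or 1.30-fold (adjusted p = 0.0290). Without the unnumbered or the 1 sample of either group, and with median centring of the arrays, XPOT did not pass (adjusted p up to 0.105 without a sample).

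**Figure D2:**
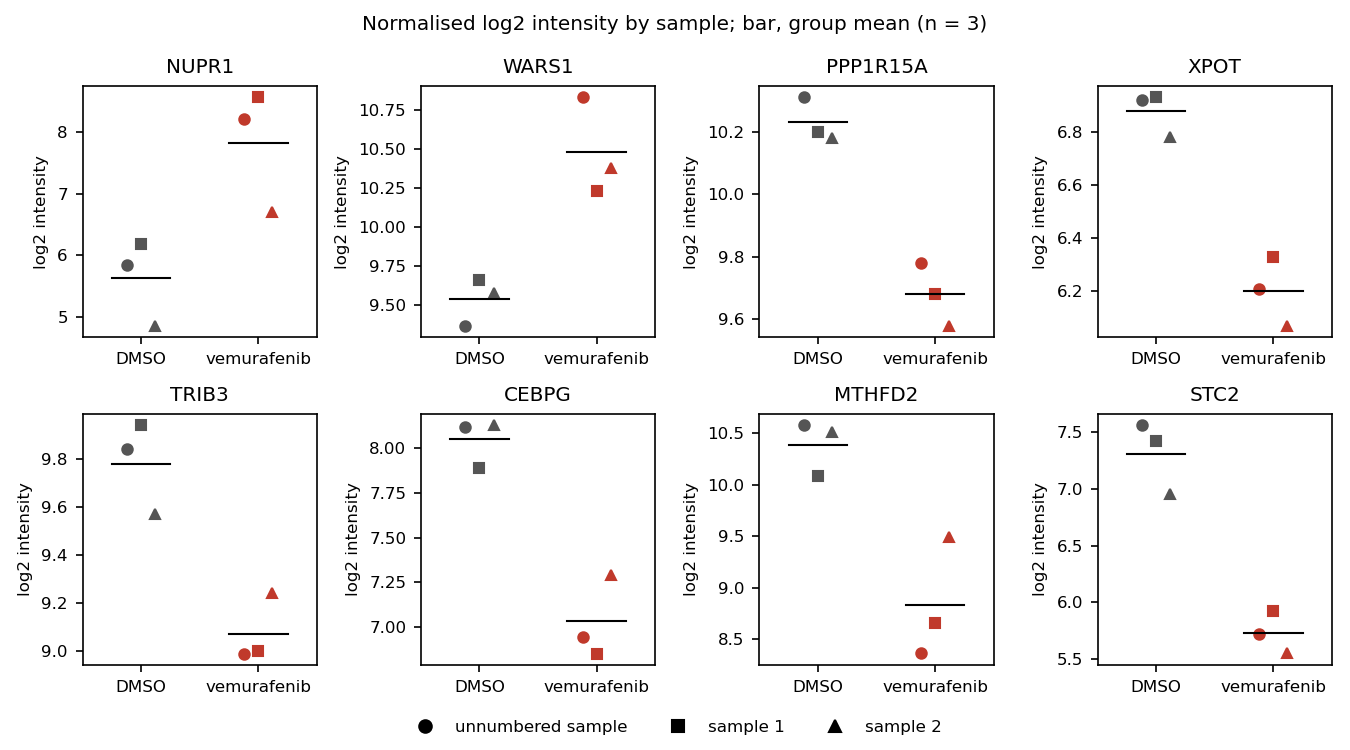
Normalised log2 intensity of the 8 genes that passed, by sample (grey, DMSO; red, vemurafenib; circle, unnumbered; square, 1; triangle, 2), with a bar at the mean of the 3 samples; each panel has its own vertical axis, which does not start at 0. The groups do not overlap in any panel, and the treated sample 2 lies nearest the controls for NUPR1, MTHFD2, CEBPG and TRIB3.

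Among the genes of the integrated stress response, 1 rose, 4 fell and 5 did not pass. ATF4 had log2 intensities of 12.78, 12.72 and 12.68 with DMSO and 12.39, 12.59 and 12.50 with vemurafenib on its brightest probe. All controls lay above all treated samples, but the change of -0.23 ± 0.15 (SE) did not pass (limma adjusted p = 0.328) and had a 95% interval of -0.58 to 0.11. A pair of other ATF4 probes had changes of -0.16 and 0.00. ATF5, a related factor that is also controlled in translation, spanned 8.43 to 9.29 in controls and 8.63 to 9.24 in treated samples, a change of 0.11 ± 0.26 (limma adjusted p = 0.816).

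The ATF4 partner CEBPG fell and CEBPB did not pass. CEBPG, whose promoter carries the core printed above, had 8.12, 7.89 and 8.13 with DMSO and 6.94, 6.85 and 7.29 with vemurafenib. The treated samples lay wholly below the controls, with treated sample 2 nearest to them. CEBPG was 2.03-fold lower, a log2 change of -1.02 ± 0.18 (SE, limma adjusted p = 0.0148). It did not pass without DMSO unnumbered, vemurafenib unnumbered or vemurafenib 1 (adjusted p up to 0.0715). CEBPB had 11.31, 11.33 and 10.92 against 11.56, 11.58 and 11.24, a change of 0.27 ± 0.19 (limma adjusted p = 0.368), with overlapping groups. The 3 same-numbered differences of CEBPB were 0.25, 0.24 and 0.32.

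STC2, stanniocalcin 2, a secreted glycoprotein induced in the stress response, fell. Its log2 intensity was 7.56, 7.42 and 6.95 with DMSO and 5.72, 5.92 and 5.55 with vemurafenib. The lowest control lay more than 1.0 above the highest treated sample, and the gene was detected on all 6 arrays. STC2 was 2.99-fold lower, a log2 change of -1.58 ± 0.21 (SE, limma adjusted p = 0.00623). With no background correction the change was -0.89, or 1.86-fold (adjusted p = 0.00739). It was the 1 gene of the 8 that passed without each array in turn, with log2 changes of -1.76 to -1.45 (adjusted p up to 0.0363).

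The feedback regulators TRIB3 and PPP1R15A also fell. TRIB3 went from 9.84, 9.94 and 9.57 to 8.99, 9.0 and 9.24, so that the samples numbered 2 lay closest together (a difference of -0.34, against -0.85 for the unnumbered pair and -0.94 for pair 1). TRIB3 was 1.64-fold lower (log2 change -0.71 ± 0.17 SE, limma adjusted p = 0.0336). PPP1R15A had 10.31, 10.20 and 10.18 with DMSO and 9.78, 9.68 and 9.58 with vemurafenib, with nearly equal differences of -0.54, -0.53 and -0.60 in the 3 pairs. It was 1.47-fold lower (log2 change -0.55 ± 0.15 SE, limma adjusted p = 0.0463). The TRIB3 call was lost without the unnumbered or 1 sample of either group (adjusted p up to 0.124), and the PPP1R15A call without any 1 of the 6 samples (adjusted p up to 0.143) and with median centring.

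NUPR1, a small stress-induced nuclear protein, rose. On its brighter probe it had 5.84, 6.18 and 4.85 with DMSO and 8.22, 8.57 and 6.71 with vemurafenib. Each treated sample lay above every control, and sample 2 was the lowest of its group under both treatments. The rise was 4.62-fold, a log2 change of 2.21 ± 0.52 (SE, limma adjusted p = 0.0313), and it is approximate because the gene was detected on 2 of 3 control arrays. With no background correction it was 1.33, or 2.52-fold (adjusted p = 0.0366). The second probe had a change of 2.19 ± 0.50 (limma adjusted p = 0.0290). It was detected on 1 control array and 3 treated arrays, so it met the filter through the treated group. Its control values of 4.87, 4.94 and 4.22 lay near background, which makes its change approximate too. The call on the brighter probe held without vemurafenib 2 and was lost without each of the other 5 samples (adjusted p up to 0.120). On that probe the replicate block gave an adjusted p of 0.00126.

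DDIT3 and DDIT4, which encode CHOP, a factor of prolonged stress, and REDD1, an inhibitor of mTORC1, did not pass. DDIT3 had 7.91, 7.91 and 7.01 with DMSO and 8.26, 8.22 and 7.46 with vemurafenib, a change of 0.37 ± 0.32 (SE, limma adjusted p = 0.470). The same-numbered differences were 0.34, 0.31 and 0.46, and both samples numbered 2 lay below the rest. DDIT4 had 11.48, 11.27 and 10.38 against 11.55, 11.39 and 11.15 (change 0.32 ± 0.29, limma adjusted p = 0.488). Its difference was 0.77 in the 2 pair and 0.07 and 0.13 in the other pairs. DMSO 2 lay below the mean of the other controls for 8 of the 10 stress-response genes, and the median difference over all 10 was -0.36 (log2). Vemurafenib 2 lay below the mean of the other treated samples for 6.

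**Figure D3:**
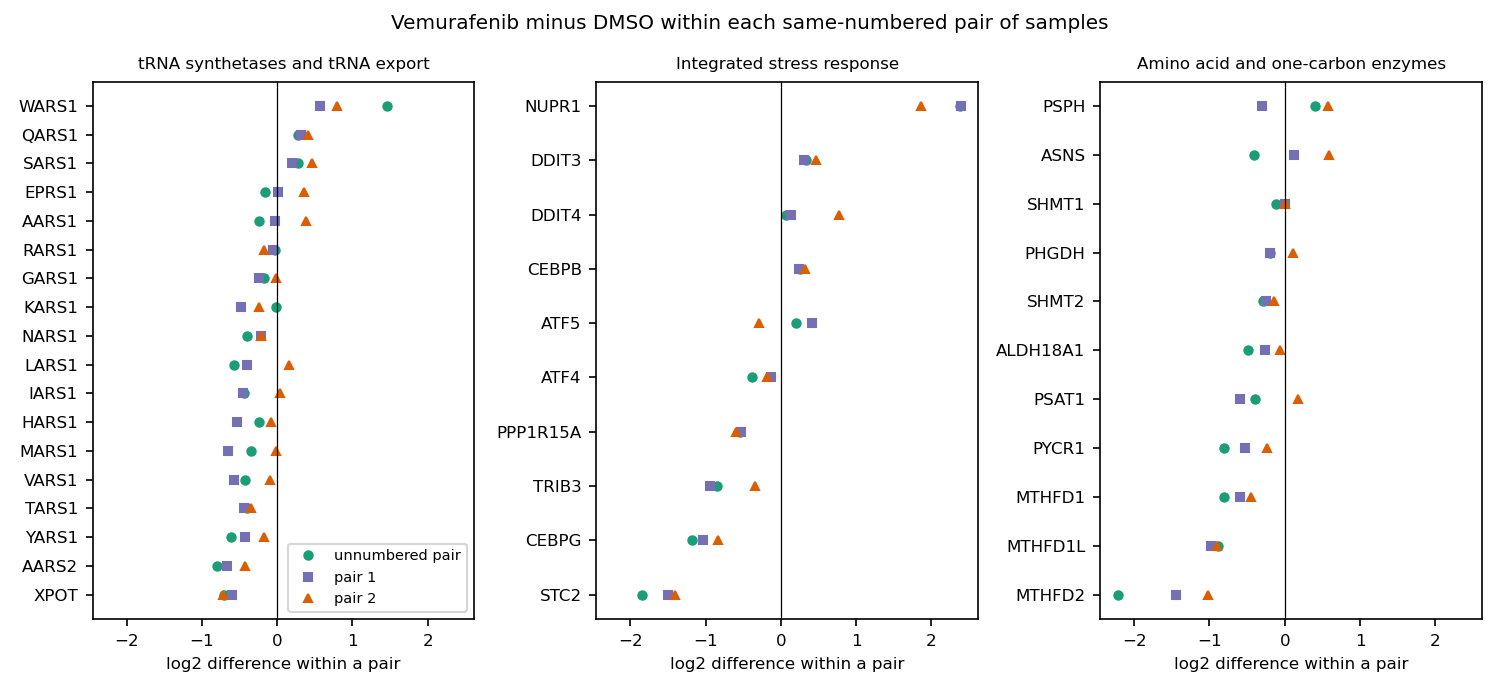
Difference in log2 intensity, vemurafenib minus DMSO, within the unnumbered (circle), 1 (square) and 2 (triangle) pairs for each measured gene, in 3 panels by role. The groups of NUPR1, WARS1 and the 6 falling genes do not overlap, so all 3 of their pairs must lie on one side of 0. Some genes that did not pass, such as QARS1, DDIT3 and MTHFD1L, also have all pairs on one side. Others, such as ASNS, AARS1 and ATF5, have pairs on both sides.

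Of the amino acid and one-carbon enzymes, 1 of 11 fell and 10 did not pass. MTHFD2, the mitochondrial folate enzyme that oxidises one-carbon units taken from serine, had 10.58, 10.09 and 10.51 with DMSO and 8.36, 8.66 and 9.49 with vemurafenib. The groups did not overlap, and treated sample 2 lay nearest the controls. MTHFD2 was 2.95-fold lower, a log2 change of -1.56 ± 0.30 (SE, limma adjusted p = 0.0182). The unnumbered, 1 and 2 pairs differed by -2.22, -1.44 and -1.02. The call was lost without DMSO unnumbered, vemurafenib unnumbered or vemurafenib 1 (adjusted p up to 0.0751).

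The other folate enzymes of the set did not pass. MTHFD1L, which releases formate in mitochondria, had 8.12, 8.02 and 8.72 with DMSO and 7.24, 7.03 and 7.83 with vemurafenib. Its change of -0.92 ± 0.27 (SE) did not pass (limma adjusted p = 0.0598), and it did with the replicate block (0.00628), as the 3 pairs differed by -0.88, -0.98 and -0.90. MTHFD1, the cytosolic enzyme that takes up formate, had 7.06, 6.82 and 7.17 against 6.25, 6.23 and 6.73, a change of -0.61 ± 0.20 (limma adjusted p = 0.0754, and 0.0272 with the block). For both genes every treated sample lay below every control. The serine hydroxymethyltransferases had smaller changes, -0.23 ± 0.15 for the mitochondrial SHMT2 (adjusted p = 0.341) and -0.03 ± 0.14 for the cytosolic SHMT1 (adjusted p = 0.901). SHMT2 went from 11.38, 11.49 and 11.46 to 11.09, 11.24 and 11.32, groups that did not overlap. The 6 SHMT1 values lay between 9.21 and 9.33, and a pair of other SHMT1 probes had changes of 0.34 and 0.02.

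The enzymes that make serine from glycolytic intermediates did not pass. PHGDH, the first of them, had 12.49, 12.66 and 12.01 with DMSO and 12.28, 12.48 and 12.12 with vemurafenib (change -0.09, 95% interval -0.58 to 0.40). PSAT1 had 10.60, 10.48 and 10.18 against 10.21, 9.89 and 10.36 (change -0.27, limma adjusted p = 0.389). Its difference was negative for the unnumbered and 1 pairs, and that of the 2 pair was 0.18. PSPH, the last step, had probes that differed in sign, 0.23 for the one used here and -0.23 for the other, neither passing.

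ASNS, which makes asparagine and is a well-known ATF4 target, had 10.24, 9.99 and 9.38 with DMSO and 9.82, 10.12 and 9.97 with vemurafenib. The groups overlapped, and the DMSO 2 sample was the lowest of the 6. The change was 0.10 ± 0.24 (SE, limma adjusted p = 0.806), with a 95% interval of -0.45 to 0.65, and a second probe gave 0.15. Of the proline enzymes, PYCR1 had 7.23, 7.12 and 6.93 against 6.43, 6.59 and 6.70, without overlap (change -0.52 ± 0.16, limma adjusted p = 0.0706). ALDH18A1, the step before it, had a change of -0.27 ± 0.17 (limma adjusted p = 0.303), with overlapping groups.

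Of the 9 measured genes with the amino acid core, CEBPG fell and 8 did not pass, with log2 changes from -0.92 (MTHFD1L) to 0.10 (ASNS). In the same fit 16% of all genes passed. A window was searched for 7 of the 8 passing genes of the set. Over all 39 genes the treated and control samples did not overlap for 4 genes in the upward and 15 in the downward direction, 19 in all, against 39.9% of all genes tested. An exact permutation test of a single gene cannot give a p below 0.1 with 3 samples against 3.

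Genes that surround the set were listed by role and counted in the same fit. Of all 11220 genes tested, 16% passed in this fit and 29.8% with the replicate block, and 3960 had an unadjusted p under 0.05 in limma. Among 12 measured genes for the eIF2 kinases, eIF2 and its exchange factor eIF2B, 0 passed at an adjusted p under 0.05. None had an unadjusted p under 0.05, and 0 passed with the replicate block. The kinases EIF2AK1, EIF2AK2, EIF2AK3 and EIF2AK4 had log2 changes of 0.14, -0.24, 0.18 and -0.16. Among 15 measured mitochondrial synthetases 0 passed (3 at an unadjusted p under 0.05), while with the block HARS2 (0.53) was higher and MARS2 (-0.86) and NARS2 (-0.55) were lower. FARSA, a subunit of the cytosolic phenylalanyl-tRNA synthetase, fell by 0.99 ± 0.26 on the log2 scale (SE, limma adjusted p = 0.0429), and its partner subunit FARSB did not pass (-0.21).

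Of 11 other measured ATF4 targets, 2 rose, 1 fell and 8 did not pass. The passing genes were 27.3% of this list, against 16% of all genes. HMOX1, heme oxygenase, which NRF2 also controls, rose by 2.31 ± 0.52 and the stress factor ATF3 by 1.16 ± 0.24 on the log2 scale (SE, limma adjusted p = 0.0277 and 0.0233). EIF4EBP1, a repressor of cap-dependent translation, changed by -1.42 ± 0.17 (limma adjusted p = 0.00428), from 7.50 ± 0.17 to 6.08 ± 0.14 (SD, n = 3 per group). With no background correction EIF4EBP1 changed by -0.87 and ATF3 by 0.74, and both still passed (adjusted p = 0.00406 and 0.0221). SESN2 and GDF15 did not pass (-0.03 and -1.01). With the replicate block GDF15 was lower as well.

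Of 12 measured amino acid transporters, 1 rose and 2 fell. SLC38A2, a sodium-coupled neutral amino acid transporter, rose by 0.72 ± 0.17, and its relative SLC38A1 changed by -0.71 ± 0.16 (SE, limma adjusted p = 0.0338 and 0.0306). SLC43A1 was 1.51-fold lower on measured means of 5.30 and 4.70 (limma adjusted p = 0.0393). It was detected on 3 DMSO arrays and 0 treated arrays, so it met the filter through the controls alone and its fold is approximate. The call was lost with no background correction (1.14-fold, limma adjusted p = 0.158) and with an offset of 50 (1.22-fold, limma adjusted p = 0.106). SLC7A11, the cystine carrier, and SLC7A5, the leucine carrier, did not pass (-0.02 and -0.07). With the block 5 were lower and 1 higher, SLC7A1, SLC1A5 and SLC36A4 being added, where 29.8% of all genes passed.

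Of 9 other measured folate, glycine, proline and glutamine genes 1 rose (11.1%, against 16% of all genes passing). It was ALDH4A1, which degrades proline-derived intermediates (0.89 ± 0.21 SE, limma adjusted p = 0.0298, and 0.52 with no background correction). TYMS and GLDC did not pass (-1.03 and -0.82). With the block 3 of the 9 were lower (TYMS, GLDC and GCSH) and 2 higher (AMT and ALDH4A1), where 29.8% of all genes passed. Of 12 measured ER chaperones and genes of the unfolded protein response 1 fell (8.33%, against 16% of all genes passing). It was SDF2L1, an ER-resident cochaperone (-1.10 ± 0.21 SE, limma adjusted p = 0.0187). HSPA5, the chaperone BiP, had a change of -0.51 ± 0.16 (limma adjusted p = 0.0654), and with the block it was lower too. Of the 12 changes 11 were negative, with a median of -0.31, against a median of 0.05 over all genes. Of the 9 passing genes of these lists, EIF4EBP1 passed without each array in turn. The other 8 lost the call without DMSO unnumbered, DMSO 1 or vemurafenib unnumbered, and all of those but HMOX1 also without vemurafenib 1 (adjusted p up to 0.143). FARSA, SLC38A1, SLC38A2, SLC43A1 and ALDH4A1 lost it without DMSO 2 as well.

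**Figure D4:**
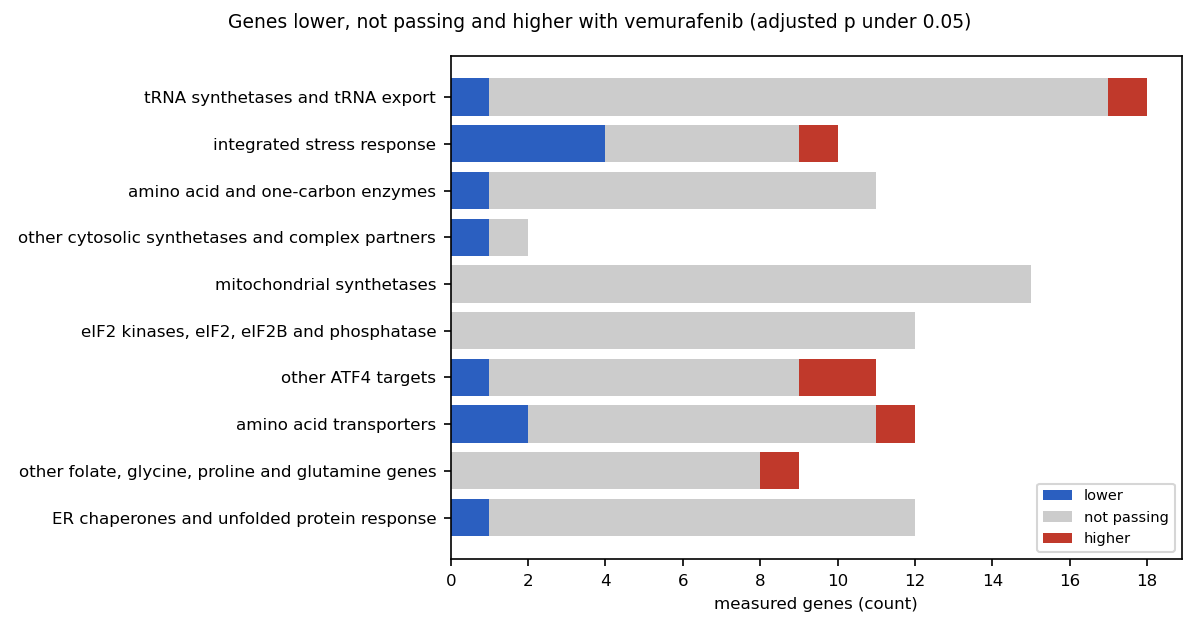
Number of measured genes that were lower (blue), did not pass (grey) or were higher (red) with vemurafenib, for the 3 roles of the set at the top and 7 surrounding lists. The stress-response genes hold 5 passing of 10, and the lists for mitochondrial synthetases and for eIF2 hold 0. Of all genes tested, 16% passed.

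The passing genes depended on the samples used. Without both samples numbered 2, 2 genes were higher and 12 lower, the 8 reported genes together with AARS2, MTHFD1, MTHFD1L, PYCR1, VARS1 and YARS1. These 14 of 39 (35.9%) lay near the 32.4% of all genes that passed in that fit. Leaving out 1 array left between 1 and 10 passing genes of the set (2.56% to 25.6%, against 2.72% to 23.8% of all genes), the fewest (STC2 alone) without DMSO unnumbered, vemurafenib unnumbered or vemurafenib 1, and the most without vemurafenib 2. Without DMSO 1, CEBPG, MTHFD2 and STC2 passed, and without DMSO 2 NUPR1 and PPP1R15A did not.

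**Figure D5:**
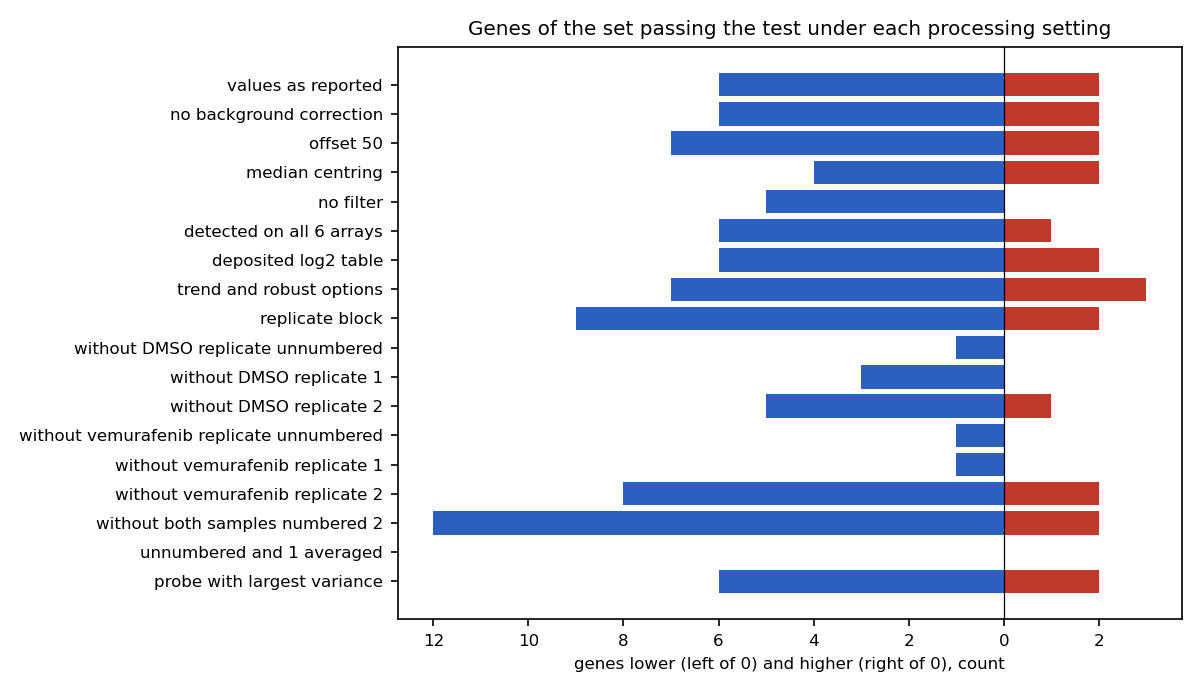
Number of genes of the set that were lower (blue bars, left of 0) and higher (red bars, right of 0) under each processing setting and sample choice. The values as reported give 6 lower and 2 higher, the fit without both samples numbered 2 gives 12 and 2, and the fit with the unnumbered and 1 samples averaged gives 0. Of all genes, 16%, 32.4% and 0.232% passed in these 3 fits.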

How the data were processed

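Total RNA of 6 samples was turned into biotinylated cRNA for Illumina bead arrays, as the labels' protocols state. In 1 file the authors deposited a table of probe signal intensity on a linear scale, without background subtraction or normalization as its values show, and a detection p-value per probe and array, per the file headers. The authors also deposited log2 values of the same arrays. Their method is not stated, and they match log2 of quantile-normalized intensities without background correction to within 0.0480 (93.5% within 0.03), with a median of 6.54 on each array. The scanner software was not given in the sources.

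Of 48107 probes 4 with a missing value were left out. Intensities were background corrected with limma 3.58.1 in R 4.3.3 (normexp, negative controls inferred from detection p-values, offset 16), quantile normalized and turned into log2 values. A probe was kept if its detection p was under 0.01 on 3 or more arrays. GEO's platform annotation named 30111 probes with 1 gene symbol, 8 with several and 17984 with none. A gene was represented by its kept probe of highest mean; 0 genes had probes called in opposite directions. The fit (lmFit, eBayes, no covariates) was tested on simulated data. Alternatives covered background, normalization, filter, variance model, probe choice, replicate block and samples left out. The samples numbered 2 deviated together from their group means (correlation 0.52 over kept probes) and against the others (-0.30 to -0.47). Deviations from a group mean sum to 0, so negative values must accompany the positive one and are not separate evidence. The unnumbered and 1 pairs had correlations of 0.19 and 0.35. DMSO 1 with vemurafenib unnumbered had 0.26, and DMSO unnumbered with vemurafenib 1 had 0.35. These values set only the samples numbered 2 apart and do not match the unnumbered and 1 samples by number. Blocked values are given where they change a call. Genes and lists were chosen with earlier results of these data known. All measured genes of the set could be named, and from each surrounding list up to 4 passing genes, taken by size of change, and up to 2 of the brightest where none passed; others named beside them, and the ASNS window, were chosen after their values were seen.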

Additional observations from a re-analysis of the deposited data

How the results depend on the processing

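Directions of the 8 passing genes held under each alternative that tested them (NUPR1 was not tested where detection on all 6 arrays was required). The number of passing genes over the whole table was 1796; it was 940 with no filter on dim probes, 3339 with the replicate block, 3638 without both samples numbered 2 and 26 with the unnumbered and 1 samples averaged, and 305 to 2671 when 1 array was left out. With median centring 60.8% of passing genes were higher, against 50.4%. Among tRNA charging and export genes, 1 higher and 1 lower became 0 higher with no filter and with averaging, 2 higher with the trend and robust options, 0 lower with median centring and with averaging, 2 lower with the replicate block and 4 lower without both samples numbered 2; leaving out 1 array gave 0 to 1 higher and 0 to 2 lower. The 1 higher stress-response gene became 0 with no filter, with detection required on all 6 arrays and with averaging (0 to 1 without 1 array), and the 4 lower became 0 with averaging and 1 to 3 without 1 array. The 1 lower enzyme became 2 with an offset of 50 and with the trend and robust options, 3 with the replicate block, 4 without both samples numbered 2, 0 with no filter and with averaging, and 0 to 3 without 1 array. With no background correction the log2 changes of NUPR1, STC2 and XPOT were 1.33, -0.89 and -0.38, and on the deposited log2 values 1.34, -0.90 and -0.38, so that MTHFD2 (-1.42 and -1.43) lay below STC2. Changes near 0 turned sign: AARS1 was -0.01 with median centring, AARS1, EPRS1 and ASNS were -0.14, -0.07 and -0.14 without both samples numbered 2, and PSPH and SHMT1 were -0.23 and 0.02 on the probe with the largest variance. Leaving out 1 array gave ranges of -0.20 to 0.18 for AARS1, -0.07 to 0.18 for EPRS1, -0.21 to 0.08 for RARS1, -0.11 to 0.33 for ATF5, -0.01 to 0.54 for DDIT4, -0.14 to 0.29 for ASNS and -0.28 to 0.05 for PHGDH. Averaging leaves 2 samples a group, and so does leaving out both samples numbered 2, where more genes passed. With no filter more genes were tested. The cause of these differences was not tested. Detection on 2 of 3 control arrays limits the fold of NUPR1.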
